A study of Mus musculus with 12 samples.

Results

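The subunits of the mitochondrial respiratory chain and of ATP synthase were followed in SCC7, a cell line of mouse squamous carcinoma, after culture in medium conditioned by macrophages. Members were protein-coding genes chosen by symbol: Ndufa, Ndufb, Ndufc, Ndufs and Ndufv genes with a number, Sdha to Sdhd, Uqcr genes, Cyc1, Cox4 to Cox8 genes, Atp5 genes and the subunit genes of mitochondrial DNA. The rule found 99 of the 55487 genes in the count table, or 98 symbols, since Atp5o had a second gene ID with 0 counts. Complex I had 42 members, complex II 4, complex III 10, complex IV 23 and complex V 20. Nuclear DNA encodes 86 of them and mitochondrial DNA 13. Ndufa4 and its relative Ndufa4l2 were placed in complex IV, where Ndufa4 is now known to sit.

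RNA sequencing covered 12 libraries in 4 groups of 3, all from wild-type SCC7 cells held for 24 h in conditioned medium (CM) of bone-marrow-derived macrophages. The macrophages had themselves been treated for 24 h. Plain DMEM gave M0 CM, interferon-gamma (written INF-γ in the labels) at 20 ng/ml gave M1 CM, IL-4 at 20 ng/ml gave M2 CM, and medium that was 75% SCC7 conditioned medium gave TAM CM. M0 CM was thus the control for the other media, and SCC7 cells without macrophage medium were not among the groups. Whether cytokines or tumour cell medium were carried over into the conditioned media is not stated in the sources used here. Separate cultures for the libraries of a group are not stated in the labels. The spread behind each p-value is therefore that between these samples and may be technical.

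Library totals ran from 18996937 to 22596630 counts, and 14509 genes passed the expression filter. The labelled cell type was checked against its markers. Krt8 and Krt18 were expressed, at 267 and 105 CPM (counts scaled to library size) with M0 CM, while Krt5, Krt14, Cdh1 and Epcam were at or near 0 in all groups and Trp63 had a mean of 1.79 CPM with M0 CM and less in the other media. The fibroblast list, mostly collagen genes, summed to 2463 to 2611 CPM with M0 CM and to 1135 to 1510 CPM in the libraries of the other media. Its collagen genes Col1a1, Col1a2 and Col3a1 were lower in each of these, and Lum had 0 counts. Dcn was at 2.82 CPM with M0 CM, 12.5 with M1 CM, 4.10 with M2 CM and 16.9 with TAM CM. Pdgfra was at 236, 263, 168 and 320 CPM in the same order. For the third M2 CM library the labels give melanoma as the cell type. The squamous and epithelial list, nearly all Krt8 and Krt18, summed to a mean of 373 CPM with M0 CM, 168 with M1 CM, 718 with M2 CM and 95.4 with TAM CM. Both lists thus moved with the media, and their part in the results below was not tested. In all 12 libraries 6 of 7 melanocyte markers were under 1 CPM, and the third M2 CM library was also left out in turn like every other.

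The respiratory chain passes electrons from food to oxygen across the inner mitochondrial membrane. Complex I takes them from NADH and complex II from succinate, ubiquinone carries them to complex III, cytochrome c carries them on to complex IV, and complex IV hands them to oxygen. Complexes I, III and IV pump protons as they do so, and complex V, the ATP synthase, lets the protons flow back to make ATP. Complex II is encoded by nuclear genes alone, whereas the other complexes mix nuclear subunits with a core from mitochondrial DNA, which is transcribed as long joint RNAs that are then cut. Some nuclear subunits of complex IV come in tissue isoforms, with forms of heart and skeletal muscle, of lung or of testis beside the common one.

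Of the 99 members, 91 passed the filter, and they spanned a wide range of levels. RPKM (CPM per kilobase of merged annotated exons) allows a rough comparison of genes. On this scale mt-Co1 was highest in M0 CM at 5194, followed by mt-Nd1 at 2981 and mt-Cytb at 2363. Several other mitochondrial genes share nearly all their sequence with pseudogenes, as given below, so the ranking is one of counts. The highest nuclear members were Atp5b at 301 RPKM and Atp5a1 at 286, the catalytic and non-catalytic subunits that alternate in the ATP synthase head. The 8 members that did not pass were Cox4i2, Cox6b2, Cox7a1, Cox7b2, Cox8b, Cox8c, mt-Atp8 and the second Atp5o ID, with 0 to 72 counts each over all libraries.

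Most members differed somewhere among the 4 media, by small amounts. In edgeR's quasi-likelihood test, with Benjamini-Hochberg adjustment over all genes and a threshold of 0.05, 83 of the 91 differed among the media, where 83.5% of all genes tested did. The 8 without a call were mt-Nd4l, mt-Atp6, Ndufb4, Ndufb6, Ndufb8, Sdhc, Atp5h and Atp5k. Of the 91, only Cox6a2, Uqcrq and Ndufa4l2 were called with at least a doubling or halving in a comparison with M0 CM. The share of all genes with calls of that size was not counted, so this describes the members alone. These counts describe RNA of whole cultures, in which fewer cells of a type and less RNA per cell cannot be told apart.

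In TAM CM the members together leaned lower, a lean of the nuclear-encoded members that the mitochondrial-encoded ones, given below, did not share. Against M0 CM, 19 members rose and 45 fell, beside 35.1% of all genes higher and 34.9% lower, and 70.0% called in either direction. The median log2 fold change was -0.17 over the members and 0.00 over all genes tested. In M1 CM 28 members rose and 24 fell, beside 27.7% and 25.6% of all genes and 53.4% called, with a median of 0.04. In M2 CM 25 rose and 9 fell, beside 21.0% and 18.5% of all genes and 39.4% called, with a median of 0.02.

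The split between rises and falls in M1 CM and M2 CM moved with the scaling of the libraries. When library sizes alone replaced the TMM factors, 20 members were higher and 32 lower in M1 CM, 9 higher and 18 lower in M2 CM, and 12 higher and 58 lower in TAM CM. Without the first M0 CM library, 5 members in place of 9 were lower in M2 CM. The lower lean in TAM CM held under both scalings.

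TAM CM also stood below the other 2 treated media. Against M1 CM, 19 members were higher and 53 lower, beside 32.8% and 34.4% of all genes and 67.2% called, and against M2 CM 20 were higher and 50 lower, beside 34.3% and 34.1% of all genes and 68.4% called. Between M2 CM and M1 CM, 28 were higher in M2 CM and 29 lower, beside 27.8% and 28.4% of all genes and 56.2% called. All comparisons with M0 CM share its 3 libraries.

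The values of 2 groups often did not overlap at all, in members as in other genes. This held for 46 members in M1 CM against M0 CM (58.8% of all genes tested), 40 in M2 CM (49.5%) and 67 in TAM CM (73.1%). It held for 51 members between M2 CM and M1 CM (59.8%), 71 between TAM CM and M1 CM (69.5%) and 74 between TAM CM and M2 CM (71.3%).

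**Figure D1:**
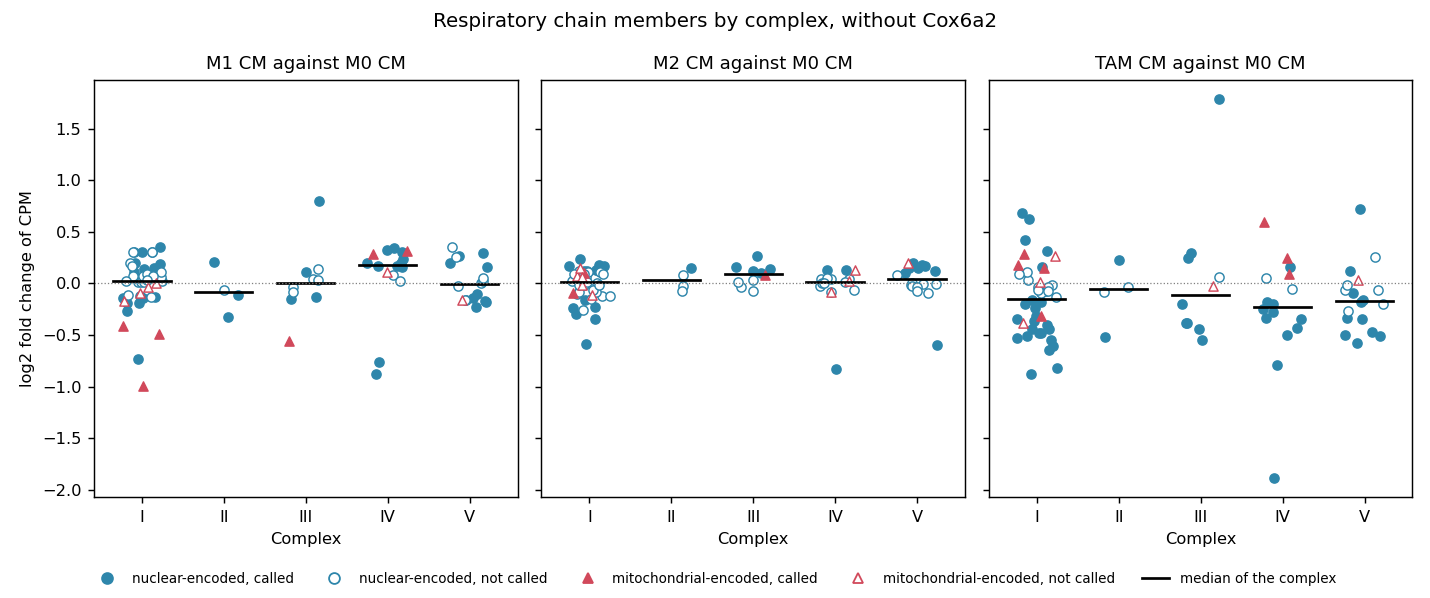
Log2 fold change of CPM against M0 CM for each member that passed the filter except Cox6a2, which had 0 counts in M0 CM, by complex in M1 CM, M2 CM and TAM CM. Filled symbols passed the edgeR test at an adjusted p under 0.05, and black lines are medians of the points shown; in TAM CM most points lie under 0, with Uqcrq at 1.79 and Ndufa4l2 at -1.89 as the extremes.

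The plot of fold changes by complex shows that no complex moved as a block in TAM CM. Over all genes tested, 35.1% were higher and 34.9% lower in TAM CM, 27.7% and 25.6% with M1 CM, and 21.0% and 18.5% with M2 CM. Complex I had 8 members higher and 20 lower (median -0.15), complex II 1 and 1 (-0.06), complex III 3 and 5 (-0.11), complex IV 5 and 10 (-0.20) and complex V 2 and 9 (-0.17). In M1 CM complex IV was the one with a clear lean, with 12 of 17 members higher and 2 lower and a median of 0.20. The other complexes in M1 CM had 9 higher and 11 lower (I, median 0.02), 1 and 2 (II, -0.09), 2 and 3 (III, 0.00) and 4 and 6 (V, -0.01). In M2 CM complex III had 6 of 10 members higher and 0 lower (median 0.09) and complex V 7 of 18 higher and 1 lower (0.04). Complexes I, II and IV in M2 CM had 9 and 7, 1 and 0, and 2 and 1.

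The counts of complexes I and III in M2 CM rested on single libraries and on the scaling. Members of complex I higher in M2 CM numbered 5 in place of 9 without the first M0 CM library, and those lower 4 in place of 7. Members of complex III higher in M2 CM numbered 3 in place of 6 without the third M0 CM library and 1 with library sizes alone. The 2 members of complex IV higher in M2 CM became 0 without the second M2 CM library, with DESeq2 or with library sizes alone, and 1 without the first or second M0 CM library or the first M2 CM library. The 1 member of complex V lower there became 0 without the first M0 CM library and 2 without the second M2 CM library. In M1 CM 5 members of complex I in place of 9 were higher without the second M1 CM library, and 1 member of complex II in place of 2 was lower. The 2 of complex III higher in M1 CM became 1 without the first or the third M0 CM library, the first or second M1 CM library, the second M2 CM library or the first TAM CM library. With library sizes alone, 2 members of complex I were higher and 11 lower in M2 CM, where complex IV had 0 higher and 3 lower, complex II 2 lower and complex III 1 lower. Under that scaling M1 CM had 1 higher and 5 lower in complex III and 2 higher in complex V, and TAM CM had 5 higher in complex I, 2 in complex IV and 1 in complex V, and 3 lower in complex II.

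Cox6a2 showed the widest range of all members. It encodes the heart and skeletal muscle isoform of subunit 6A of cytochrome c oxidase, whose common form is Cox6a1, and lies at chr7:128205435-128206387, minus strand, in mm10. Its level was 0, 0 and 0 CPM with M0 CM, 1.75, 2.45 and 1.48 with M1 CM, 0.0929, 0.0502 and 0.0475 with M2 CM and 23.5, 26.5 and 22.6 with TAM CM. All TAM CM libraries lay far above all M1 CM libraries, the M1 CM libraries above those of M2 CM, and M0 CM had 0 counts throughout.

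Summed over the 3 libraries of a group, Cox6a2 had 0 counts with M0 CM, 119 with M1 CM, 4 with M2 CM and 1460 with TAM CM. With 3 counts taken as a floor for the M0 CM group, Cox6a2 was 40.8-fold higher in M1 CM and 521-fold higher in TAM CM. The exact binomial 95% intervals, from the counts themselves, began at 32.7-fold and 424-fold. TAM CM exceeded M1 CM 12.8-fold (exact binomial 95% interval 10.6 to 15.5, counting error only), with a log2 fold change of 3.67 (SE 0.15, edgeR adjusted p = 2.64e-26). Against the 4 counts of M2 CM the ratio was 380, with an interval of 148 to 1395. M2 CM was not called against M0 CM (edgeR adjusted p = 0.0561).

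Even in TAM CM the muscle form stayed the lesser one. Per length, Cox6a2 stood at 35.6 RPKM with TAM CM and Cox6a1 at 194. Cox6a1 itself was at 167, 176 and 176 CPM with M0 CM, 186, 166 and 196 with M1 CM, 168, 165 and 164 with M2 CM and 139, 126 and 144 with TAM CM. Its TAM CM libraries lay below all others, with a log2 fold change of -0.34 (SE 0.05, edgeR adjusted p = 3.19e-06), while M1 CM and M2 CM overlapped with M0 CM.

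The other muscle genes looked at did not accompany Cox6a2. Of 12 striated muscle genes, 11 were under 1 CPM in every library, among them Ckm, Myh7 and Mb, and Myh4, Myl1 and Actc1 had 0 counts in all libraries. The exception was the sarcomere gene Ttn, at 65.1 CPM with M0 CM and 64.6 with TAM CM. The macrophage list summed to 22.7 to 23.7 CPM with M0 CM, 33.7 to 39.8 with M1 CM, 22.5 to 24.9 with M2 CM and 40.9 to 50.5 with TAM CM. Most of that was Cd14, while C1qa and C1qb had 0 counts, Ptprc, Adgre1 and Itgam were at or near 0, and 6 of 10 markers were under 1 CPM in every library. The sum stood in the same order over the media as Cox6a2, with M0 CM and M2 CM overlapping, and TAM CM highest before M1 CM was the order of Cd14, at 17.3 CPM with M0 CM, 26.1 with M1 CM, 15.9 with M2 CM and 40.9 with TAM CM, but not of Cd68, Mrc1 or Csf1r. Cd68 was at 3.89 CPM with M0 CM, 6.99 with M1 CM, 5.03 with M2 CM and 2.89 with TAM CM, and Mrc1 at 0.681, 2.60, 1.90 and 0.725 CPM. Csf1r was at 0.303, 0.525, 0.371 and 0.140 CPM in the same order. Lyz2, at 0.831, 0.422, 0.416 and 1.31 CPM, was also highest in TAM CM, with M0 CM next. Its TAM CM value was not called against M0 CM (edgeR adjusted p = 0.106) but was called higher than M1 CM and M2 CM. The part of macrophage RNA in the result was not tested. Cox6a2 overlaps an exon of Itgad, on the opposite strand, over 10.3% of its exon bases, and Itgad had 0, 3, 0 and 29 counts over the libraries of M0, M1, M2 and TAM CM. Most Itgad counts were thus in TAM CM, where Cox6a2 was highest, and the part of overlapping reads in either gene was not tested.

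The 5 genes whose log2 CPM tracked Cox6a2 most closely over the 12 libraries, among 12022 genes compared, were Cth, Aldh1l2, Atf5 and Sars (Pearson r = 0.998 each) and Leprotl1 (r = 0.997). Cth, a gene of cysteine synthesis, was at 6.95 CPM with M0 CM, 66.5 with M1 CM, 10.6 with M2 CM and 399 with TAM CM. Aldh1l2, a mitochondrial folate enzyme, was at 43.0, 249, 54.6 and 1291 CPM in the same order. The 3 points of a group share its medium, and the likeness is a description.

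The remaining tissue isoforms of complex IV were close to absent. Cox7a1, the muscle form of subunit 7A, had 13, 19, 11 and 15 counts over M0, M1, M2 and TAM CM, and Cox4i2, the lung and hypoxia form of subunit 4, had 9, 2, 3 and 3. Cox6b2 had 3 counts and Cox7b2 had 4 in all, both forms known from testis. Cox8b, a further muscle form, had 1 count and Cox8c, of testis, 0. No difference among the media was detectable for any of these at this depth.

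**Figure D2:**
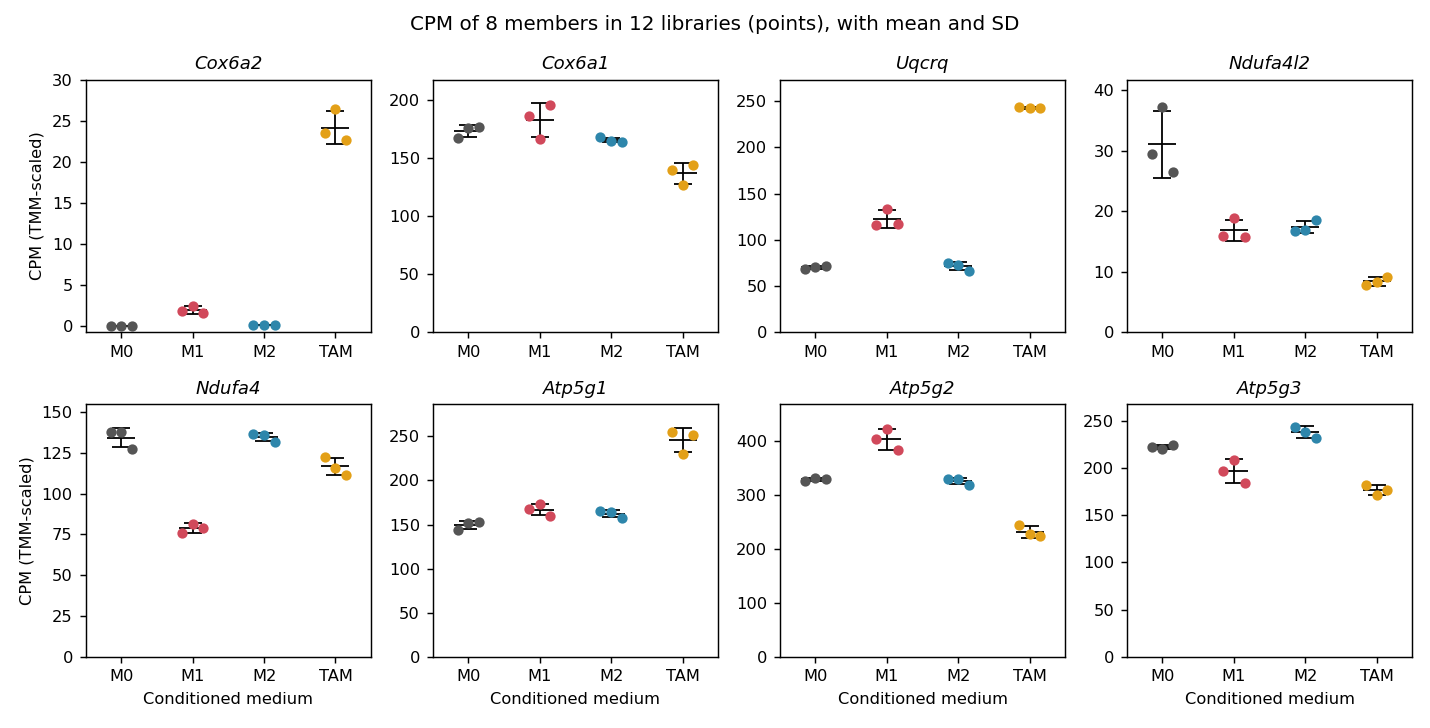
CPM on TMM-scaled library sizes for 8 members in the 4 conditioned media, with a point for each library and bars for mean and SD (n = 3). Cox6a2 is at 0 in M0 CM and at 24.2 CPM with TAM CM, Uqcrq reaches 243 CPM with TAM CM, and in TAM CM Atp5g1 moves against Atp5g2 and Atp5g3.

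The nuclear members of complex IV were mostly higher in M1 CM and lower in TAM CM. Of the 14 tested, 10 rose in M1 CM and 2, Ndufa4 and Ndufa4l2, fell. The shares of all genes there were 27.7% and 25.6%. In TAM CM 2 rose, Cox6a2 and Cox4i1, and 10 fell, where 35.1% of all genes were higher and 34.9% lower. Cox4i1, the common form of subunit 4, was at 141, 152 and 153 CPM with M0 CM, 182, 193 and 176 with M1 CM, 158, 157 and 145 with M2 CM and 169, 164 and 166 with TAM CM. The M1 CM and TAM CM libraries all lay above M0 CM, with log2 fold changes of 0.31 (SE 0.04) and 0.16 (SE 0.04). Its rise in TAM CM was not called with library sizes alone (0.07, edgeR adjusted p = 0.121).

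Cox7a2, the common form of subunit 7A, turned the opposite way in TAM CM. Its libraries were at 71.4, 68.3 and 72.0 CPM with M0 CM, 81.5, 88.1 and 73.2 with M1 CM, 73.1, 76.6 and 68.2 with M2 CM and 41.5, 41.1 and 39.5 with TAM CM. All TAM CM values lay well below the rest, with a log2 fold change of -0.79 (SE 0.06, edgeR adjusted p = 1.52e-16), and M1 CM was above M0 CM at 0.20 (SE 0.05). Its relative Cox7a2l, which joins complexes III and IV in supercomplexes, followed the same course, at 94.5 ± 1.55 CPM (mean ± SD, n = 3) with M0 CM, 119.8 ± 12.6 with M1 CM, 92.7 ± 2.04 with M2 CM and 75.1 ± 1.68 with TAM CM. A processed pseudogene, Gm6969, holds 13.8% of the 50-base words of Cox7a2l, so its counts are less certain.

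Further subunits behaved alike in part. Cox7c, which shares 22.1% of its words with other transcripts, was at 104 ± 3.01 CPM with M0 CM, 119 ± 7.94 with M1 CM and 73.7 ± 1.03 with TAM CM, a rise of 0.20 (SE 0.04) and a fall to -0.50 (SE 0.04) on the log2 scale. Cox6b1, of subunit 6B, had log2 fold changes of 0.32 (SE 0.07) in M1 CM and -0.25 (SE 0.08) in TAM CM. Those of Cox6c were 0.17 (SE 0.05) and -0.18 (SE 0.05), where the M1 CM value was not called with library sizes alone (0.10, edgeR adjusted p = 0.0939). Cox8a was called in TAM CM alone of the 3 media, at -0.28 (SE 0.04). Cox7b rose in M1 CM by 0.17 (SE 0.04) and was not called in TAM CM (edgeR adjusted p = 0.269).

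Ndufa4 and Ndufa4l2 fell where most of complex IV rose. Ndufa4, a complex IV subunit first assigned to complex I, was at 138, 137 and 127 CPM with M0 CM, 76.0, 81.7 and 79.1 with M1 CM, 136, 136 and 132 with M2 CM and 122, 116 and 112 with TAM CM. The M1 CM libraries stood apart below all others, and TAM CM lay below M0 CM by less. M1 CM against M0 CM gave a log2 fold change of -0.77 (SE 0.04, edgeR adjusted p = 5.52e-22), and TAM CM gave -0.20 (SE 0.04).

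Ndufa4l2, a hypoxia-induced paralog of Ndufa4, lies at chr10:127514967-127517154, plus strand, in mm10. Its libraries were at 29.5, 37.2 and 26.6 CPM with M0 CM, 15.9, 18.9 and 15.8 with M1 CM, 16.7, 16.9 and 18.6 with M2 CM and 7.81, 8.22 and 9.12 with TAM CM. M0 CM was highest, M1 CM and M2 CM overlapped with each other below it, and TAM CM was lowest with no overlap. The log2 fold changes against M0 CM were -0.88 (SE 0.10), -0.83 (SE 0.10) and -1.89 (SE 0.11), the last with an edgeR adjusted p of 2.66e-15. Exons of Shmt2, on the opposite strand, cover 2.92% of its exon bases, and Shmt2 was at 266 CPM with M0 CM and 754 with TAM CM, the opposite direction.

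In complex III a single small subunit left the rest behind. Uqcrq, which encodes a subunit of the cytochrome bc1 complex once named for binding ubiquinone, lies at chr11:53427922-53430831, minus strand, in mm10. It was at 68.2, 70.5 and 71.9 CPM with M0 CM, 116, 133 and 117 with M1 CM, 75.0, 73.0 and 66.7 with M2 CM and 244, 242 and 243 with TAM CM. The TAM CM libraries lay above those of M1 CM, which lay above M0 CM and M2 CM, and the latter overlapped. TAM CM was 3.46-fold higher than M0 CM, with a log2 fold change of 1.79 (SE 0.04, edgeR adjusted p = 2.53e-29), and M1 CM 1.74-fold, with a log2 fold change of 0.80 (SE 0.05, edgeR adjusted p = 1.86e-17). No 50-base word of Uqcrq occurs in transcripts of other genes of the annotation used.

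The catalytic subunits of complex III did not share this. Uqcrfs1, the Rieske iron-sulfur protein, was at 82.6, 91.5 and 84.4 CPM with M0 CM, 87.3, 85.5 and 91.4 with M1 CM, 91.5, 95.5 and 101 with M2 CM and 59.7, 58.3 and 58.3 with TAM CM. TAM CM was lowest without overlap, with a log2 fold change of -0.55 (SE 0.05, edgeR adjusted p = 3.91e-15). Cyc1, cytochrome c1, was instead highest in M2 CM, at 253, 257 and 269 CPM with M0 CM, 271, 268 and 266 with M1 CM, 316, 303 and 317 with M2 CM and 275, 267 and 272 with TAM CM. Only the M2 CM libraries lay clear of M0 CM, with a log2 fold change of 0.26 (SE 0.03, edgeR adjusted p = 2.46e-09).

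Among the core proteins, Uqcrc1 fell in M1 CM by 0.15 and in TAM CM by 0.38 on the log2 scale, whereas Uqcrc2 rose in TAM CM by 0.25. Uqcrc2 shares 17.6% of its words with other transcripts. Uqcr10, a small subunit next to cytochrome c1, was at 87.7 ± 5.54 CPM with M0 CM and 107 ± 4.92 with TAM CM, a rise of 0.29 (SE 0.05). Counts of complex III made up 11.6 ± 0.0722% of all nuclear member counts in M0 CM (n = 3), 12.1 ± 0.0627% with M1 CM, 11.9 ± 0.134% with M2 CM and 13.8 ± 0.0604% with TAM CM. These counts include Uqcrq, the member of the complex that rose most in TAM CM, and the share without Uqcrq was not computed.

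Complex I, the entry point for NADH, leaned lower in TAM CM in its core and, with some rises, in its accessory subunits. Of 7 nuclear core subunits, which carry flavin and iron-sulfur clusters, 0 rose and 5 fell in TAM CM, with a median log2 fold change of -0.32, against shares of all genes of 34.9% lower and 35.1% higher. In M1 CM 1 rose and 2 fell, where 27.7% and 25.6% of all genes did. That rise was not called without the third M0 CM library, the first or the second M1 CM library, with DESeq2 or with library sizes alone, and 1 fell without the second M0 CM library or the first M1 CM library. Ndufs1, which holds several of the clusters, was at 98.4, 103 and 100.3 CPM with M0 CM, 94.7, 87.3 and 92.1 with M1 CM, 110.4, 108 and 108 with M2 CM and 74.1, 75.6 and 72.7 with TAM CM. TAM CM was lowest without overlap, with a log2 fold change of -0.44 (SE 0.04, edgeR adjusted p = 1.37e-13). Ndufs7, next to the ubiquinone site, had a log2 fold change of -0.49 (SE 0.05) in TAM CM. Of the 28 accessory subunits 5 rose and 14 fell in TAM CM, with a median of -0.16, and in M1 CM 8 rose and 6 fell. Without the second M1 CM library 5 rose.

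Ndufs5 and Ndufa7 were the accessory subunits that rose most in TAM CM. Ndufs5, a subunit of the intermembrane space side, was at 46.0, 47.0 and 46.2 CPM with M0 CM, 55.5, 51.5 and 52.7 with M1 CM, 50.9, 52.6 and 48.4 with M2 CM and 75.2, 74.3 and 73.1 with TAM CM. TAM CM lay above all other libraries, with a log2 fold change of 0.68 (SE 0.05, edgeR adjusted p = 1.11e-17), and M1 CM above M0 CM at 0.20 (SE 0.05). Ndufs5 shares 21.7% of its words with a processed pseudogene, BC002163, which had 75 counts in all. Ndufa7 was at 70.9, 69.1 and 68.9 CPM with M0 CM, 88.8, 86.1 and 83.4 with M1 CM, 66.6, 66.1 and 63.9 with M2 CM and 107, 109.7 and 107 with TAM CM, with no overlap between TAM CM and any other medium and a log2 fold change of 0.63 (SE 0.04, edgeR adjusted p = 5.54e-19). Its M1 CM value was 0.31 (SE 0.04).

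Ndufa8 and Ndufb5 marked the other end. Ndufa8, like Ndufs5 a small protein of the intermembrane space side, was at 73.3, 81.4 and 80.0 CPM with M0 CM, 70.8, 67.3 and 66.9 with M1 CM, 81.0, 77.8 and 79.4 with M2 CM and 43.8, 45.5 and 43.2 with TAM CM. All TAM CM libraries lay below the rest, with a log2 fold change of -0.82 (SE 0.05, edgeR adjusted p = 9.22e-21). Ndufb5, of the membrane arm, was at 26.1, 28.9 and 27.6 CPM with M0 CM, 25.1, 27.0 and 23.1 with M1 CM, 28.4, 32.1 and 27.8 with M2 CM and 15.1, 14.8 and 14.8 with TAM CM, again lowest in TAM CM without overlap, with a log2 fold change of -0.88 (SE 0.08, edgeR adjusted p = 1.67e-14). Exons of Mrpl47, on the opposite strand, cover 12.3% of its exon bases, and without strand information such reads cannot be told apart.

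M1 CM and M2 CM had their own extremes in complex I. Ndufa6 was at 93.9, 92.8 and 93.9 CPM with M0 CM, 122, 123 and 113 with M1 CM, 86.4, 86.0 and 79.5 with M2 CM and 97.5, 99.8 and 90.5 with TAM CM, highest in M1 CM and lowest in M2 CM, with log2 fold changes of 0.35 (SE 0.04) and -0.16 (SE 0.04) against M0 CM. Ndufb10 was the complex I member that rose most in M2 CM, at 67.4 ± 5.32 CPM against 57.3 ± 1.10 with M0 CM, with a log2 fold change of 0.23 (SE 0.05, edgeR adjusted p = 0.000288). Ndufv3, a small subunit of the NADH-oxidising part, fell in all 3 treated media, by 0.27 with M1 CM, 0.35 with M2 CM and 0.48 with TAM CM on the log2 scale, and was singled out after its values were seen. Ndufb2 was among the lowest, at 0.803 RPKM with M0 CM, and fell on the same scale in M1 CM by 0.74 and in TAM CM by 0.64. Its M2 CM value of -0.58 was not called without the first M0 CM library (-0.45, edgeR adjusted p = 0.0783).

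Complex II, which joins the citric acid cycle to the chain as succinate dehydrogenase, split between its catalytic partners. Sdha, the flavoprotein that oxidises succinate, was at 227, 221 and 237 CPM with M0 CM, 184, 177 and 184 with M1 CM, 223, 226 and 222 with M2 CM and 159.8, 159 and 159 with TAM CM. M1 CM and TAM CM lay below M0 CM without overlap, TAM CM lowest, with log2 fold changes of -0.33 (SE 0.03) and -0.52 (SE 0.03), and M2 CM overlapped with M0 CM. Sdhb, the iron-sulfur subunit that takes the electrons from Sdha, was at 67.7, 67.8 and 71.3 CPM with M0 CM, 78.9, 86.1 and 73.7 with M1 CM, 74.4, 74.0 and 71.0 with M2 CM and 79.0, 83.7 and 78.7 with TAM CM. M1 CM and TAM CM lay above M0 CM, with log2 fold changes of 0.21 (SE 0.05) and 0.22 (SE 0.05). Of the membrane anchors, Sdhd fell in M1 CM (log2 fold change -0.11) and rose in M2 CM (log2 fold change 0.15, SE 0.04). Sdhc was called in none of the 6 comparisons.

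In complex V the subunits of the ATP-making head rose in M2 CM. Of the 5 members of the F1 head and central stalk, 4 rose in M2 CM and 0 fell, where 21.0% of all genes were higher and 18.5% lower, and 1 rose and 3 fell in M1 CM, where 27.7% and 25.6% were. Without the second M2 CM library 1 fell in M2 CM, and with library sizes alone 0 rose in M1 CM. In TAM CM 0 rose and 2 fell (35.1% and 34.9% of all genes), or 4 without the first TAM CM library or with library sizes alone. Atp5a1, the alpha subunit, was at 900.4, 902 and 891 CPM with M0 CM, 809.6, 775 and 799.9 with M1 CM, 1016, 1023 and 999 with M2 CM and 701, 693 and 728 with TAM CM. The order M2, M0, M1 and TAM CM held without overlap, with log2 fold changes against M0 CM of 0.17 (SE 0.03), -0.18 (SE 0.03) and -0.34 (SE 0.03). Atp5b, the catalytic beta subunit, was at 1279.7, 1272 and 1269.6 CPM with M0 CM, 1162, 1119 and 1145 with M1 CM, 1417, 1459.5 and 1415 with M2 CM and 1246, 1189.7 and 1230.2 with TAM CM. Its log2 fold change was -0.16 (SE 0.03) in M1 CM and 0.17 (SE 0.03) in M2 CM. Its TAM CM value was not called (edgeR adjusted p = 0.0547). Atp5c1, the gamma subunit of the rotating stalk, fell in TAM CM with a log2 fold change of -0.47 (SE 0.03, edgeR adjusted p = 5.01e-17).

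The 3 genes of subunit c, which forms the rotating ring in the membrane, diverged. Atp5g1, Atp5g2 and Atp5g3 encode the same mature protein with different import signals. Their start regions are shown because the genes moved apart although they make 1 protein, and that of Ndufs5 because it rose in TAM CM like Atp5g1. The sequences are from RefSeq, assembly GRCm38.p6, all on the minus strand and written 5′ to 3′, and those of the 4 start regions hold the bases before the start that lie outside annotated exons. The shorter Atp5g2 sequence is 30 bases around its match, which lies inside an annotated exon. Capitals mark the motif of NRF1, which reads GCGCA, any base, GCGC. NRF1 is a factor known for binding promoters of respiratory genes.
Atp5g1, chr11:96075671-96075881: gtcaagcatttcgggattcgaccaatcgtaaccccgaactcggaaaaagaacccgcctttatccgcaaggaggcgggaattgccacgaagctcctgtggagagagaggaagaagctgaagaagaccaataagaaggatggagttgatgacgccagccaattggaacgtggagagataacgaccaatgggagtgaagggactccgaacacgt
Atp5g2, chr15:102671128-102671297: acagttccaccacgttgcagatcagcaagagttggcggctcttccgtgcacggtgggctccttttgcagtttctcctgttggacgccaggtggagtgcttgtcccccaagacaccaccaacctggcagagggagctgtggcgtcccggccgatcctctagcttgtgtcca
Atp5g2 NRF1 match, chr15:102671070-102671099: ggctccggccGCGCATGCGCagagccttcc
Atp5g3, chr2:73911327-73911576: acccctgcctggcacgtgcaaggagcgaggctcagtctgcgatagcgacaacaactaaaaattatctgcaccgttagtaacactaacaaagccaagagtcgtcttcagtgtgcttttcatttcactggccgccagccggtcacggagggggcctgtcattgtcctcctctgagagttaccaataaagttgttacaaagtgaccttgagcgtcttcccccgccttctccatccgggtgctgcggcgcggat
Ndufs5, chr4:123718203-123718436: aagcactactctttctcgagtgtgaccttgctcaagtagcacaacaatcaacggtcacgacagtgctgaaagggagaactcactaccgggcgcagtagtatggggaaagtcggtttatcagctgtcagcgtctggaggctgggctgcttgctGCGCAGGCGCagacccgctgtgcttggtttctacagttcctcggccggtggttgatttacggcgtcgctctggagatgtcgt
The Atp5g2 match lies 42 to 33 bases before the start and the Ndufs5 match 98 to 89 bases before it. Atp5g3 holds the letters as well, in the part of its window that is not printed, so 3 of these 4 genes have them and Atp5g1 does not.

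Atp5g1 was at 144, 151 and 152 CPM with M0 CM, 168, 173 and 159.9 with M1 CM, 166, 164 and 158 with M2 CM and 255, 230.4 and 252 with TAM CM. TAM CM stood above all other libraries, 1.65-fold over M0 CM, with a log2 fold change of 0.72 (SE 0.04, edgeR adjusted p = 2.2e-22). Atp5g2 was at 326, 332 and 329 CPM with M0 CM, 405, 423 and 384 with M1 CM, 329.9, 329 and 319 with M2 CM and 245, 227 and 224 with TAM CM, highest in M1 CM and lowest in TAM CM without overlap. Its log2 fold changes were 0.30 (SE 0.03) in M1 CM and -0.50 (SE 0.04) in TAM CM. Atp5g3 was at 222, 220.0 and 225 CPM with M0 CM, 197, 209 and 184 with M1 CM, 244, 238 and 231 with M2 CM and 182, 171 and 177 with TAM CM, and fell in M1 CM (log2 fold change -0.18, SE 0.04) and TAM CM (log2 fold change -0.33, SE 0.04).

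Per length of merged annotated exons, Atp5g2 remained the highest of the 3 in every medium. This ranking depends on the lengths used, 4912 bases for Atp5g1, 1675 for Atp5g2 and 2181 for Atp5g3. In CPM, the TAM CM libraries of Atp5g1 and Atp5g2 overlapped. It stood at 196 RPKM with M0 CM and 139 with TAM CM, Atp5g3 at 102 and 81.0, and Atp5g1 at 30.4 with M0 CM. Pseudogenes and other transcripts hold 11.1% of the words of Atp5g1, 38.3% of Atp5g2 and 0% of Atp5g3, so the counts of Atp5g2 are the least certain. Gm10039, a processed pseudogene that shares words with Atp5g1, had 7160 counts in all libraries.

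Other parts of complex V moved less. Atp5f1, subunit b of the outer stalk, rose in M2 CM (log2 fold change 0.19, SE 0.03). Atp5j2, a membrane subunit, fell in M1 CM by 0.23 and in TAM CM by 0.16 on the log2 scale. Atp5o, which links the outer stalk to the head, was at 6.78 ± 1.33 CPM with M0 CM and 4.54 ± 0.359 with TAM CM, a fall to -0.58 (SE 0.18). Other annotated genes overlap 47.9% of its exon bases, so its low level is uncertain. Atp5s, an associated factor, was at 3.60 ± 0.454 CPM with M0 CM, 2.39 ± 0.0661 with M2 CM and 4.33 ± 0.576 with TAM CM, and TAM CM exceeded M2 CM with a log2 fold change of 0.86 (SE 0.20, edgeR adjusted p = 0.00014).

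Start regions were matched in RefSeq's table (250 bases before to 50 after the start) for 66 of the 98 symbols, and Cox6a2, Uqcrq and Ndufa4l2 were not among them. The NRF1 motif, on either strand, was in 17 of the 66 (25.8%) and in 7.44% of 16522 protein-coding genes with a region of the same length. The ETS motif CCGGAAG was in 16 (24.2%) against 13.4%, and the YY1 motif AAGATGGC in 9 (13.6%) against 3.64%; the last 3 letters of CCGGAAG can serve as the first of AAGATGGC, so these matches may overlap. ETS factors of the GABP type and YY1 are likewise known at respiratory gene promoters. In TAM CM the 17 tested members with the NRF1 letters had a median log2 fold change of -0.34, with 2 higher and 12 lower, and the 45 without had -0.18, with 5 higher and 25 lower. For ETS the order was the reverse, at -0.19 with the letters (1 higher, 9 lower) and -0.28 without (6 and 28). For YY1 the medians were -0.20 with (0 and 7) and -0.23 without (7 and 30). Over all genes tested, 35.1% were higher and 34.9% lower in TAM CM. In M1 CM the NRF1 medians were 0.06 with the letters and 0.07 without. A match is a run of letters and not a shown site.

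Mitochondrial-encoded members had a pattern of their own, which differed from gene to gene. Of 12 that passed the filter, 2 rose and 4 fell in M1 CM (median log2 fold change -0.13), 2 rose and 1 fell in M2 CM (0.07), and 6 rose and 1 fell in TAM CM (0.12). Over all genes tested, 27.7% were higher and 25.6% lower with M1 CM, 21.0% and 18.5% with M2 CM, and 35.1% and 34.9% with TAM CM. The median in M1 CM was -0.04 without the second M0 CM library, -0.06 without the second M1 CM library and -0.19 without the third, and that in M2 CM was 0.00 without the third M0 CM library. In M2 CM 1 rose without the third M0 CM library or the second M2 CM library, 0 fell without the second M0 CM library or the first M2 CM library, and 2 fell without the second or the third M1 CM library or any 1 of the TAM CM libraries. The 79 nuclear members tested had 26 higher and 20 lower in M1 CM (0.06), 23 and 8 in M2 CM (0.02) and 13 and 44 in TAM CM (-0.20). Without the first M0 CM library, 15 nuclear members were higher and 4 lower in M2 CM, and without the third M2 CM library, labelled melanoma, their median was 0.07. With library sizes alone 9 nuclear members were higher and 16 lower in M2 CM, and of the mitochondrial members 2 were higher and 3 lower in TAM CM, and 0 were higher and 2 lower in M2 CM. Under that scaling the medians of the nuclear members were -0.01 with M1 CM, -0.04 with M2 CM and -0.29 with TAM CM, and those of the mitochondrial members -0.19, 0.01 and 0.02.

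**Figure D3:**
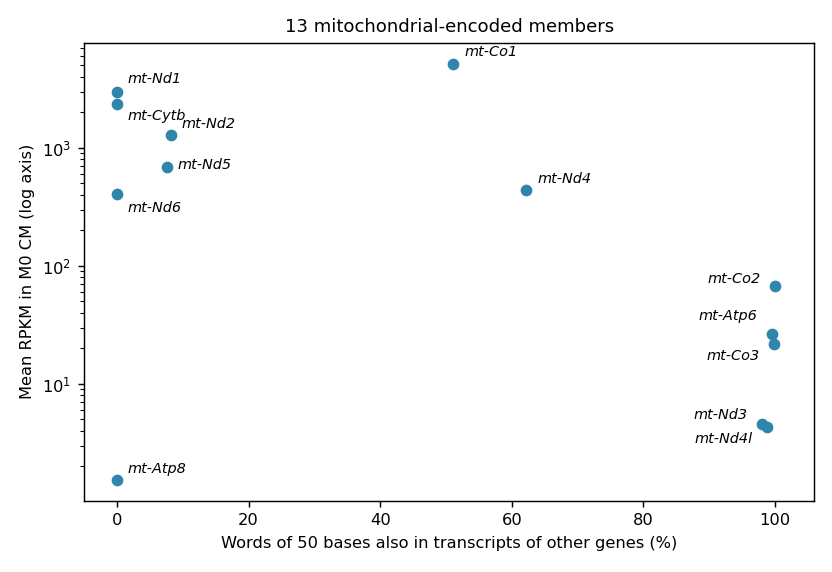
Percent of each mitochondrial-encoded member's 50-base words that also occur in transcripts of other genes (x axis) against mean RPKM with M0 CM on a log axis (y axis), a point for each of the 13. The 5 members with 98.0% or more of shared words are at 4.33 to 67.3 RPKM, whereas mt-Nd1, mt-Cytb, mt-Nd2, mt-Nd5 and mt-Nd6 are at 409.6 or more.

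Counts of several mitochondrial genes could not be read as levels. As the plot of shared words shows, mt-Co2, mt-Co3, mt-Atp6, mt-Nd4l and mt-Nd3 have 98.0% to 100% of their 50-base words in unprocessed pseudogenes of chromosome 1 (Gm28661, Gm28437, Gm10925, Gm10222 and Gm28438). These 5 were at 4.33 to 67.3 RPKM with M0 CM, and mt-Co1, which with mt-Co2 and mt-Co3 encodes the core of complex IV, was at 5194. mt-Nd4 shared 62.2% and mt-Co1 51.1% of their words, and mt-Nd2 8.19% and mt-Nd5 7.61%. mt-Nd1, mt-Cytb and mt-Nd6 shared none. mt-Atp8 also shared none, overlaps mt-Atp6 over 21.1% of its exon bases and had 72 counts. The part of shared sequence in these low counts was not tested. The 5 members with under 10% shared words and overlap are mt-Nd1, mt-Nd2, mt-Nd5, mt-Nd6 and mt-Cytb, a limit set after the values were seen. Over these 5 the median log2 fold change was -0.41 with M1 CM, with 0 higher and 3 lower, and 0.01 with TAM CM, with 2 higher and 1 lower. The shares of all genes were 27.7% higher and 25.6% lower with M1 CM, and 35.1% and 34.9% with TAM CM.

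Among those 5, the M1 CM medium set mt-Nd1, mt-Nd2 and mt-Cytb apart. mt-Nd1, a core membrane subunit of complex I, was at 2820.2, 2877 and 2861 CPM with M0 CM, 2031, 1974 and 2097 with M1 CM, 2989, 3141 and 3078 with M2 CM and 2226, 2345 and 2321 with TAM CM. M1 CM was lowest, TAM CM next, and M0 CM and M2 CM highest, all without overlap. M1 CM gave a log2 fold change of -0.49 (SE 0.03, edgeR adjusted p = 1.81e-20) and TAM CM -0.31 (SE 0.03).

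mt-Cytb, cytochrome b of complex III, was at 2649.5, 2769.7 and 2689 CPM with M0 CM, 1819, 1813 and 1883 with M1 CM, 2766, 2966 and 2829 with M2 CM and 2572, 2694 and 2719 with TAM CM. The M1 CM libraries alone lay apart, below all others, with a log2 fold change of -0.56 (SE 0.03, edgeR adjusted p = 3.29e-22), and TAM CM overlapped with M0 CM. mt-Nd2, of complex I, was at 1343 ± 17.9 CPM with M0 CM, 1010.4 ± 23.8 with M1 CM, 1407 ± 39.8 with M2 CM and 1354 ± 78.4 with TAM CM, with -0.41 (SE 0.03) in M1 CM.

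mt-Nd5, also of complex I, did not follow. It was at 1227, 1306 and 1252 CPM with M0 CM, 1198, 1217 and 1285 with M1 CM, 1167, 1198 and 1188 with M2 CM and 1464, 1604 and 1554 with TAM CM. M1 CM overlapped with M0 CM (edgeR adjusted p = 0.402), and TAM CM was highest without overlap, with a log2 fold change of 0.29 (SE 0.03, edgeR adjusted p = 3.29e-11). mt-Nd6, on the other strand of mitochondrial DNA, was at 213 ± 5.34 CPM with M0 CM and 236 ± 15.2 with TAM CM. Its TAM CM value of 0.15 (SE 0.05) passed the test, but not without the second TAM CM library (0.09, edgeR adjusted p = 0.0511). The annotated exon of mt-Nd5, on the opposite strand, covers 2.70% of the exon bases of mt-Nd6. Without strand information, reads of the opposite strand in mt-Nd6 cannot be told apart.

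mt-Co1, the catalytic subunit of complex IV, went the other way in M1 CM. It was at 7988, 8209.8 and 7876 CPM with M0 CM, 9939, 9625 and 10392 with M1 CM, 7925, 8138 and 8326 with M2 CM and 8458, 8590.3 and 8566 with TAM CM. M1 CM was highest without overlap, with a log2 fold change of 0.32 (SE 0.03, edgeR adjusted p = 3.03e-14). In TAM CM its log2 fold change was 0.09 (SE 0.03), which turned to -0.01 with library sizes alone (edgeR adjusted p = 0.791). mt-Co1 made up 47.0 ± 0.327% of all mitochondrial-encoded member counts in M0 CM, 58.8 ± 0.392% with M1 CM, 46.4 ± 0.600% with M2 CM and 49.0 ± 0.690% with TAM CM (n = 3). Since mt-Co1 shares 51.1% of its words and several other members nearly all of theirs, this is a share of counts and not of transcripts.

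**Figure D4:**
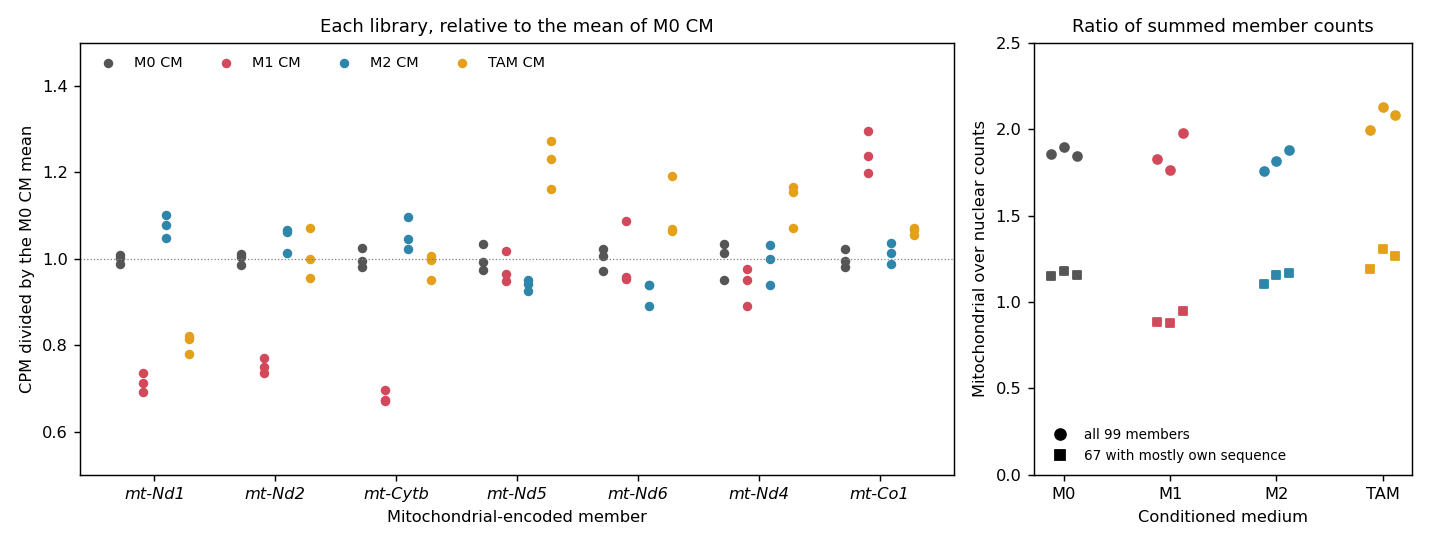
Left, CPM of 7 mitochondrial-encoded members in each library, divided by the mean of M0 CM. Right, the ratio of summed counts of mitochondrial over nuclear members in each library, for all 99 members (circles) and for the 67 with under 10% shared words and overlap (squares); the circles of TAM CM, at 1.99 to 2.13, lie above those of the other media.

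The balance of both genomes was read as the ratio of summed counts, which does not depend on scaling. Mitochondrial over nuclear member counts came to 1.87 ± 0.0285 with M0 CM, 1.86 ± 0.109 with M1 CM, 1.82 ± 0.0611 with M2 CM and 2.07 ± 0.0679 with TAM CM (SD, n = 3). The TAM CM libraries, at 1.99 to 2.13, lay above the highest M0 CM library, at 1.90, and the highest M1 CM library, at 1.98. With the 67 members of mostly own sequence the ratio was 1.16 ± 0.0152, 0.903 ± 0.0390, 1.14 ± 0.0330 and 1.25 ± 0.0574 in the same order, and the M1 CM libraries then lay below all others. M1 CM was thus near M0 CM or below it depending on which members were counted. Nuclear members held 0.950 ± 0.00338% of all counts in M0 CM and 0.817 ± 0.00413% with TAM CM, and mitochondrial members 1.77 ± 0.0252% and 1.69 ± 0.0498%. The higher ratio in TAM CM thus came with a lower share of nuclear member counts.

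The carriers that link the complexes and the factors that build them were read from lists of the pathway, whose counts stand beside 27.7% of all genes up and 25.6% down with M1 CM, 21.0% and 18.5% with M2 CM, and 35.1% and 34.9% with TAM CM. Of 14 genes for mobile electron carriers, 5 rose and 1 fell in M1 CM, 4 and 1 in M2 CM, and 6 and 1 in TAM CM. In M2 CM 2 in place of 4 rose without the first M0 CM library, and 1 with library sizes alone. The single falls became 0 or 2 when 1 library was left out: 0 in M1 CM without its second, 0 in M2 CM without the first or second M0 CM library or its own first, 2 in M2 CM without its second and 2 in TAM CM without its second. Scaled by library sizes alone, 2 fell with M1 CM, 2 with M2 CM and 3 with TAM CM. Cycs, cytochrome c, was at 122, 117 and 118 CPM with M0 CM, 155, 154 and 159 with M1 CM, 166, 168 and 160.2 with M2 CM and 229.8, 221 and 217 with TAM CM. All 3 treated media lay above M0 CM and TAM CM was highest without overlap, with a log2 fold change of 0.91 (SE 0.04, edgeR adjusted p = 4.52e-28). Of the 3 carriers of ADP, ATP and phosphate, 0 rose and 3 fell in TAM CM, and 3 rose in M2 CM. Slc25a4, an exchanger of ADP and ATP, was at 493 ± 8.45 CPM with M0 CM and 294 ± 4.91 with TAM CM (log2 fold change -0.74, SE 0.03).

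Assembly factors moved in both directions in TAM CM, where 35.1% of all genes were higher and 34.9% lower. The shares were 27.7% and 25.6% with M1 CM and 21.0% and 18.5% with M2 CM. Of 16 for complex I, 5 rose and 1 fell in M1 CM, 4 and 0 with M2 CM, and 6 and 4 with TAM CM. The last 2 of these depended on single libraries: 2 in place of 4 rose in M2 CM without the second or the third M0 CM library, and 2 in place of 4 fell in TAM CM without either of them or without the second or the third TAM CM library. The 1 that fell in M1 CM was not called without any 1 of the M0 CM libraries or the first or the third M1 CM library. With library sizes alone 2 rose and 1 fell in M2 CM, and 3 rose in TAM CM. Ndufaf4 was at 23.3 ± 0.702 CPM with M0 CM and 41.6 ± 1.42 with TAM CM (log2 fold change 0.83, SE 0.06), and Foxred1 rose in M1 CM (log2 fold change 0.37, SE 0.07). Of 4 for complex II, 2 rose in M1 CM, 0 were called in M2 CM, and 1 rose and 1 fell in TAM CM. Without the second M1 CM library 0 of these rose in M1 CM, without the first or the third M0 CM library or with library sizes alone 1 did, and without the second M0 CM library 0 fell in TAM CM. Of 6 for complex III, 2 rose in M1 CM, 0 were called in M2 CM, and 2 rose and 2 fell in TAM CM. In M1 CM 1 rose without the third M0 CM library or the second or the third M1 CM library, or with library sizes alone, and 1 fell without the third M0 CM library or the second M1 CM library. In TAM CM 1 rose with library sizes alone. Uqcc3 was at 15.7 ± 1.34 CPM with M0 CM and 6.65 ± 0.921 with TAM CM (log2 fold change -1.24, SE 0.11).

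Of 19 assembly factors for complex IV, 8 rose and 1 fell in M1 CM, 2 and 1 in M2 CM, and 6 and 6 in TAM CM. All genes tested gave 27.7% higher and 25.6% lower with M1 CM, 21.0% and 18.5% with M2 CM, and 35.1% and 34.9% with TAM CM, near the shares of this list in TAM CM. In M2 CM 1 rose without the first M0 CM library and 2 fell without the first M2 CM library, and in M1 CM 0 fell without the third M0 CM library or the first M1 CM library. In M1 CM 5 in place of 8 rose without the first M0 CM library, and 5 rose and 4 fell with library sizes alone. Cox18, which inserts a mitochondrial-encoded subunit in the membrane, rose in M1 CM (log2 fold change 0.60, SE 0.06), and Sco1, a copper chaperone, was at 16.2 ± 0.439 CPM with M0 CM and 31.8 ± 0.690 with TAM CM (log2 fold change 0.97, SE 0.07). Cox14 fell in TAM CM (log2 fold change -0.30, SE 0.05). Of 4 genes for assembly or inhibition of complex V, 1 rose and 2 fell in M1 CM, 1 rose with M2 CM and 1 with TAM CM. The rise in M1 CM was not called without the first or second M0 CM library or the second M1 CM library, nor with library sizes alone, and 2 rose in TAM CM without the third M0 CM library or the second or the third M1 CM library. In TAM CM 2 fell with library sizes alone. Tmem70 was the one that rose in both of the latter (log2 fold changes 0.36 (SE 0.06) and 0.35 (SE 0.06)).

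Genes that copy and express mitochondrial DNA mostly rose in TAM CM. Of 13, 6 rose and 2 fell in M1 CM, 4 and 0 in M2 CM, and 9 and 1 in TAM CM, where 27.7% of all genes were higher and 25.6% lower, 21.0% and 18.5%, and 35.1% and 34.9% in the same order, with a median log2 fold change of 0.32 with TAM CM. In M2 CM 2 in place of 4 rose without the first M0 CM library or with library sizes alone, and with the latter 4 fell with M1 CM, 1 with M2 CM and 2 with TAM CM. Tfam, which packs and transcribes mitochondrial DNA, was at 65.5, 67.5 and 68.2 CPM with M0 CM, 75.9, 75.4 and 75.2 with M1 CM, 75.4, 74.0 and 70.1 with M2 CM and 127, 134 and 131 with TAM CM. TAM CM lay above all other media, with a log2 fold change of 0.96 (SE 0.04, edgeR adjusted p = 2.14e-26). Lrpprc, which stabilises mitochondrial mRNAs, had a log2 fold change of 0.79 (SE 0.04) in TAM CM, and Polrmt, the mitochondrial RNA polymerase, fell in M1 CM (log2 fold change -0.30, SE 0.05) and rose in TAM CM (log2 fold change 0.26, SE 0.04).

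Against 27.7% of all genes up and 25.6% down with M1 CM, 21.0% and 18.5% with M2 CM, and 35.1% and 34.9% with TAM CM, counts of regulators and of the citric acid cycle were as follows. Of 7 nuclear regulators of mitochondrial genes, 1 rose and 4 fell in M1 CM, 3 and 0 in M2 CM, and 3 and 0 in TAM CM, where 4 fell with library sizes alone. Esrra, an orphan nuclear receptor, was at 29.7 ± 1.47 CPM with M0 CM and 38.3 ± 1.31 with M1 CM (log2 fold change 0.36, SE 0.06), Yy1 fell in M1 CM (log2 fold change -0.38, SE 0.04), and Pprc1, a coactivator, rose in TAM CM (log2 fold change 0.22, SE 0.04). Of 13 citric acid cycle genes, 3 rose and 7 fell in M1 CM, 9 and 0 in M2 CM, and 3 and 7 in TAM CM. Idh3a, an isocitrate dehydrogenase subunit, rose in M2 CM (log2 fold change 0.39, SE 0.04), Ogdh, of the oxoglutarate dehydrogenase complex, fell in M1 CM (log2 fold change -0.51, SE 0.04), and Dld, which serves several dehydrogenase complexes, was at 101 ± 0.514 CPM with M0 CM and 208 ± 4.45 with TAM CM (log2 fold change 1.04, SE 0.04).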

How the data were processed

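SCC7 RNA was extracted with Trizol and mRNA libraries followed an Illumina protocol, per the labels' protocols. The values deposited by the authors are raw read counts per Ensembl gene. The submitters' processing notes name HISAT2 2.0 and mm10. Counting tool, annotation release and strandedness: not given in the sources used here. The members, lists and limits were chosen with earlier results of these data known.

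Groups follow the sample titles. Of 55487 gene IDs, 55227 matched GENCODE release M21 (GRCm38), which gave symbols, coordinates and exon lengths and may not be the authors' release. edgeR 4.0.16 in R 4.3.3 was used on the counts: filterByExpr on the groups (14509 genes kept, and 0.0815% of counts removed), TMM scaling, glmQLFit (robust) with a mean per group, then glmQLFTest. p-values were adjusted over all genes by Benjamini-Hochberg, with a threshold of 0.05. The SE of a log2 fold change is its size divided by the square root of F. CPM use TMM-scaled library sizes, and RPKM divide these by exon length. Totals of 18996937 to 22596630 counts per library went with a biological coefficient of variation of 3.65%. Intervals cover counting error only, and the floor of 3 counts stands in for 0 counts. Cox6a2 enters medians at its fitted value, and at its floor-based value it keeps its rank, so the medians are the same.

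Words of 50 bases shared with transcripts of other genes, and exon overlap, were computed from the same release. The genes named were the isoform groups, complex II, Cyc1, the mitochondrial-encoded members, the largest rise and fall of each complex in each comparison (adjusted p under 0.05, groups without overlap, at least 2 CPM), the called gene of smallest p in each pathway list, and the 5 genes most like Cox6a2; a part of them is printed. Uqcrc1, Uqcrc2, Uqcr10, Ndufs1, Ndufs7, Ndufa8, Ndufv3, Cox7c, Atp5a1, Atp5b and the genes outside the naming rule were added after their values were seen. Alternatives were DESeq2 1.42.0, its size factors in edgeR, library sizes alone, scaling without mitochondrial genes, other filters, fits of 2 groups, a replicate block and each library left out in turn. The edgeR steps were tested on simulated counts. Figures were drawn with matplotlib 3.10.9.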

Additional observations from a re-analysis of the deposited data

How the results depend on the processing

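The counts of members called over all complexes were within 1.5 times of those reported under each alternative run, except for the following. With library sizes alone, members higher in M2 CM than in M0 CM numbered 9 (25 with TMM), members lower numbered 18 (9 with TMM), and members higher in TAM CM than in M0 CM numbered 12 (19 with TMM). Over fits with 1 library left out, members lower in M2 CM numbered 5 to 10, the lowest without the first M0 CM library. In an alternative added after seeing the data, the ratio of mitochondrial to nuclear member counts over members with mostly their own sequence was 1.16 for M0 CM, 0.903 for M1 CM, 1.14 for M2 CM and 1.25 for TAM CM. The log2 fold change of mt-Co1 in TAM CM reversed to -0.0079 with library sizes alone. The cause was not tested. Library sizes alone moved the median over all genes by less than 0.1 in each comparison, to -0.06 for M1 CM and M2 CM and -0.09 for TAM CM. For the 304 called changes of named genes, the alternatives gave 5918 values that kept the call, 161 that lost it and 1 that reversed.

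Replicate numbers are shared across the groups. The 18 same-numbered pairs of libraries correlated at -0.0289 to 0.0507 in their deviations from the group means, with a median of 0.0150. The 36 other pairs between groups correlated at -0.0516 to 0.0515, with a median of -0.00771. These correlations were small, but 10 of 12 libraries correlated best on average with their own number. Whether same-numbered libraries share a batch was not tested. With the replicate number as a block, members higher and lower were 28 and 25 for M1 CM, 25 and 10 for M2 CM and 19 and 46 for TAM CM against M0 CM, 29 and 32 in M2 CM and 19 and 53 in TAM CM against M1 CM, and 20 and 51 in TAM CM against M2 CM.

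At this depth 8 members were too low to test, and shared sequence and overlapping genes limit how far counts of single members can be read as their own levels.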

Other observations

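Some genes next to the respiratory chain fell outside the naming rule. Ndufab1, the mitochondrial acyl carrier protein that is also a complex I subunit, was at 25.3 ± 0.842 CPM with M0 CM, 21.4 ± 1.35 with M1 CM, 24.2 ± 1.72 with M2 CM and 26.7 ± 1.92 with TAM CM (n = 3), and fell in M1 CM (log2 fold change -0.25, SE 0.07, edgeR adjusted p = 0.00408). Ndufb1-ps, named as a pseudogene, was at 17.6 ± 1.19, 25.9 ± 5.12, 17.0 ± 2.70 and 17.8 ± 1.05 CPM in the same order, and rose in M1 CM (log2 fold change 0.56, SE 0.14, edgeR adjusted p = 0.00345). Of the chromosome 1 pseudogenes that share words with mitochondrial genes, Gm28438 was at 17.7 ± 2.45 CPM with M0 CM and 6.35 ± 2.25 with TAM CM, and Gm28437 at 10.7 ± 0.831 and 15.1 ± 1.21. Gm28438 fell in TAM CM (log2 fold change -1.49, SE 0.30, edgeR adjusted p = 0.00179) and Gm28437 rose (log2 fold change 0.49, SE 0.10, edgeR adjusted p = 3.94e-05), opposite directions for these pseudogenes. Gm28439 rose as well (log2 fold change 0.54, SE 0.20, edgeR adjusted p = 0.0126), whereas Gm10925, Gm28661, Gm10222 and Gm29216 were not called in TAM CM against M0 CM.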
